A study of Homo sapiens with 16 samples.

Results

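The genes described here are the serpins and the plasminogen activator genes of T24 bladder cancer cells and of the gemcitabine-resistant GRC1 cell line derived from them. They were chosen by symbol, as rows of the expression table named SERPIN, a clade letter from A to I and a number, plus PLAU, PLAT and PLAUR. The genes described here are 35 of the 39007 rows, of which 32 are serpins, with clade B the best represented (12 genes) and clade A next (10 genes). The 4 serpin pseudogene rows were left out. Of the 35 genes, 14 had a mean above 1 CPM (the count scaled to a library total of 1000000) over all libraries and were tested, among 13249 tested genes in all, and 21 lay below that level. Because the filter used the mean over all phases, a gene could pass through the phase in which it was high, so counts over the tested genes describe those genes and not the whole family.

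T24 is an established line from a human urinary bladder carcinoma. The study exposed it to repeated rounds of gemcitabine, a nucleoside analog that blocks DNA synthesis, let the survivors regrow into colonies, and named each completed round a phase. Poly(A)-primed RNA-seq libraries covered untreated T24, the parental phase P0, and GRC1 at P3 (early phase), P7 (intermediate phase) and P15 (late phase), with 4 libraries each and 16 in all, and the comparisons ask how expression changed as resistance was built up. The titles of all 16 libraries, of the parental and the resistant phases alike, carry the same label NT. Each title also ends in an S number, and some of these numbers recur in another phase. The sources used do not state what they mark, and a part of it in the results was not tested. GRC1 was the only one of the derived lines measured by RNA-seq here, the sources used do not state whether the libraries of a phase were separate cultures, and the p-values below therefore measure the spread between these libraries, which may be technical.

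Serpins are protease inhibitors that offer the protease a reactive loop as bait and trap it by a change of shape after the loop is cut, although several family members inhibit no protease and act as chaperones or hormone carriers. The urokinase-type and tissue-type activators, encoded by PLAU and PLAT, cleave plasminogen to plasmin, a broad protease that degrades fibrin and matrix and activates other zymogens, and the receptor encoded by PLAUR holds urokinase at the cell surface. Several serpins inhibit these activators, among them PAI-2, encoded by SERPINB2, and this system is long known in bladder cancer cells as part of cell migration and matrix breakdown.

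All values are the deposited log2(CPM + 1) values unless CPM is named, and a gene was called changed when limma's test across all tested genes gave a Benjamini-Hochberg adjusted p below 0.05 and a fold change of at least 2. The estimated depth was 33.8 to 50.0 M counts per library, so that 1 count was worth at most 0.0296 CPM. The urothelial and epithelial markers, 13 genes, had a summed level of 2177 to 2251 CPM in the parental libraries. Of these genes 7 were tested, and 4 stayed below 1 CPM in every library. Their sum was 2419 to 2553 CPM at P3, 1775 to 1921 CPM at P7 and 695 to 772 CPM at P15, and 6 of the 7 tested ones were called lower at P15 than at P0. The summed level of 8 fibroblast markers was 7.26 to 8.45 CPM at P0 and 1.78 to 6.47 CPM at P3. It was 5.57 to 6.54 CPM at P7 and 46.6 to 51.7 CPM at P15. Of these 8 genes 3 were tested, and 5 stayed below 1 CPM in every library. COL1A1 and COL3A1 were called higher at P15 than at P0, and the other tested one, PDGFRB, differed by -0.15 with no call. Endothelial markers summed to at most 7.95 CPM and leukocyte markers to at most 8.56 CPM in any library, with the highest library of both at P0. The urothelial and fibroblast sums at P15 lay outside the range of every other phase. The part of these marker shifts in the P15 results below was not tested. In bulk RNA a smaller share of cells that express a gene and less RNA per cell cannot be told apart.

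The serpin and activator genes changed in each step, and most at the last. At P3 against P0, 4 of the 14 tested genes were called, all higher, where 4.47% of all tested genes were called, 1.95% higher and 2.51% lower. At P7 against P3, 3 were called, all lower, where 1.84% of all genes were called and 0.845% were called lower. At P15 against P7, 10 were called, 5 higher and 5 lower, where 25.5% of all genes were called, 13.4% higher and 12.1% lower. At P15 against P0, 9 were called, 5 higher and 4 lower, where 23.6% of all genes were called, 12.2% higher and 11.5% lower. By the adjusted p alone, with no fold threshold, 14, 12, 14 and 13 of the 14 genes passed in these 4 comparisons, where 68.7%, 58.2%, 86.4% and 86.2% of all genes did. Calls close to 2-fold did not hold under every alternative: SERPINB7 at P7, SERPINB5 at P3, PLAT and SERPINI1 at P15 against P0, and SERPINA5 and PLAUR at P15 against P7 each lost theirs under at least 1. The 3 steps share libraries with one another and with the comparison of P15 with P0, so that their counts are not independent.

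The median size of the differences was above that of all tested genes in each comparison. The median absolute log2 fold change of the 14 genes was 0.48 at P3 against P0, 0.40 at P7 against P3, 1.39 at P15 against P7 and 1.16 at P15 against P0. Over all tested genes it was 0.23, 0.17, 0.55 and 0.51. With sign, the median of the 14 was 0.40, -0.16, 0.26 and 0.16 in the same order, and that of all genes was within 0.06 of 0 in each comparison. A fold of 4 or more between P15 and P0 was reached by 5 of the 14 (PLAUR, SERPINB2, SERPINB5, SERPINB7 and SERPINH1), beside 7.46% of all tested genes. Between P15 and P7 it was reached by 4 (SERPINB2, SERPINB5, SERPINB7 and SERPINH1), beside 7.75% of all.

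The late phase held the highest or lowest mean of most of these genes, as it did for most genes of the table. The highest phase mean was at P15 for 7 of the 14 (43.5% of all tested genes), at P7 for SERPINA5, SERPINB1, SERPINB5 and SERPINE2 (16.2%), at P3 for SERPINB8 and SERPINH1 (20.1%) and at P0 for PLAT alone (20.1%). The lowest was at P15 for 5 of the 14 (38.5% of all), at P0 for PLAUR, SERPINB7, SERPINB8 and SERPINI1 (18.4%), at P7 for PLAT, PLAU and SERPINB2 (18.6%) and at P3 for SERPINA1 and SERPINB6 (24.5%), and these shares were not tested.

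**Figure D1:**
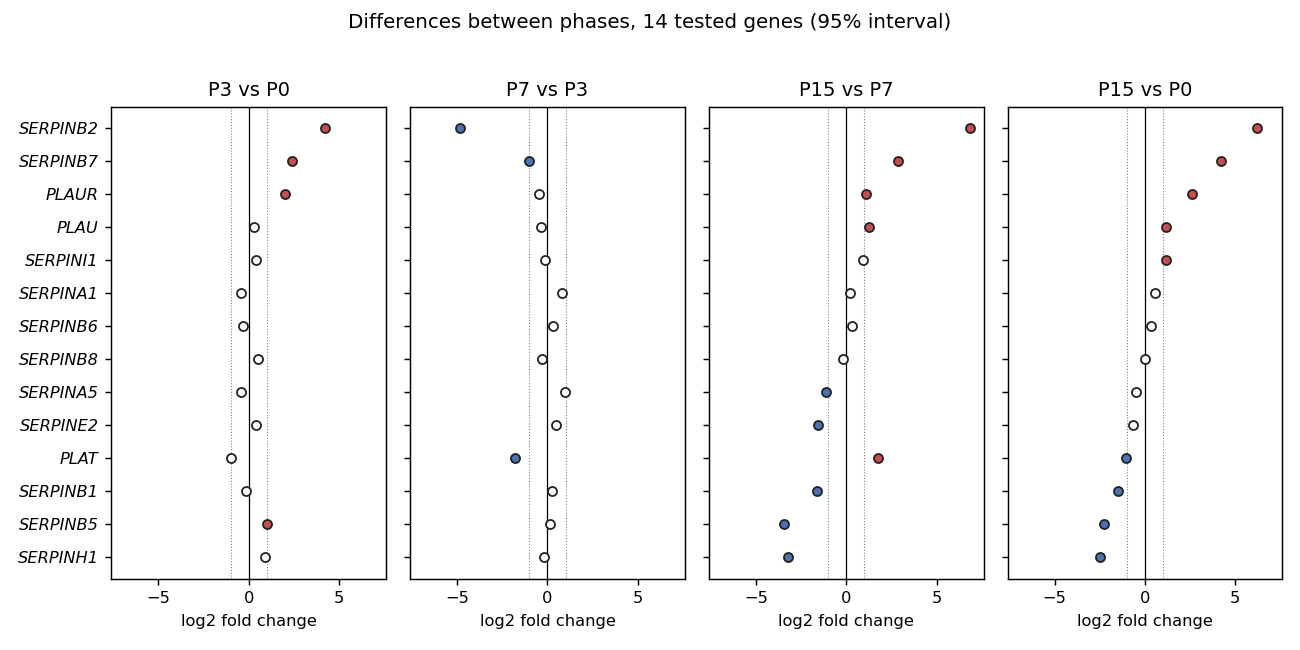
Log2 fold change (x axis) of the 14 tested genes in each of the 4 comparisons, with 95% intervals from limma that are mostly narrower than the points. Filled red points were called higher, filled blue points were called lower and open points were not called, and dotted lines mark a fold change of 2. SERPINB2 has the largest difference in every panel, with 4.21 at P3 against P0, -4.82 at P7 against P3 and 6.83 at P15 against P7.

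The upstream sequences are shown first, because 4 of the tested genes lie in the same cluster on chromosome 18 and did not change alike. The RefSeq promoter table (GRCh38.p14) held entries for 27 of the 35 genes and for 13 of the 14 tested ones, with 22 windows for these 13. The AP-1-like motif TGANTCA, with N for any base, reads the same on both strands apart from its central base. In the 250 bases before each start it was found in 5 of the 13 tested genes (PLAUR, SERPINB2, SERPINB5, SERPINB7 and SERPINB8). Of all 35116 windows, each counted on its own, 6.57% held it. The motif TATAAA, searched on both strands, was found in 3 of the 13 and in 10.7% of all windows. The motif GGGCGG, searched on both strands, was found in 8 of the 13 and in 42.6% of all windows. A gene with several windows had several chances to hold a match, and a match in letters is a description of the sequence and not evidence of a bound factor. Below, capitals mark TGANTCA and TATAAA matches on either strand, and sequences are given on the strand of the gene.

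The whole windows of SERPINB2 (chr18:63887455-63887704, plus strand) and SERPINB5 (chr18:63476708-63476957, plus strand) are printed because these genes had the largest rise and the largest fall of the cluster at P15. No GENCODE exon overlaps either window.
SERPINB2: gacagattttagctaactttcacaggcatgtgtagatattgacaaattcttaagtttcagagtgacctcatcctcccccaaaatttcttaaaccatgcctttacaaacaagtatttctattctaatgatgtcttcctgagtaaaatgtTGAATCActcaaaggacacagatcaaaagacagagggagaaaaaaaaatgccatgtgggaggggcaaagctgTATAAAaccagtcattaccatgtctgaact
SERPINB5: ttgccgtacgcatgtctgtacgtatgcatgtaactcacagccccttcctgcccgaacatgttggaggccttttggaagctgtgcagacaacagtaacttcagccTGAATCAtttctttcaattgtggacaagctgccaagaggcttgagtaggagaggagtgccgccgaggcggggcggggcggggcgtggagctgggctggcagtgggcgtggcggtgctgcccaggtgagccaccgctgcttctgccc
Both hold the same 7 letters TGAATCA, 102 bases before the start in SERPINB2 and 146 bases before it in SERPINB5, and of the pair only the SERPINB2 window has a TATAAA.

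For the other 3 genes with a match only a short stretch around 1 match is shown, since the longer window runs into an exon of another transcript of the gene. The stretches are PLAUR at chr19:43670338-43670366 (minus strand), the most downstream of the 3 SERPINB7 windows at chr18:63777731-63777760 (plus strand) and SERPINB8 at chr18:63969885-63969913 (plus strand).
PLAUR: tcacaactccaTGAGTCAgggccgagcca
SERPINB7: gtgtcTGAGTCAgaggcTTTATAtttcaga
SERPINB8: ggagtcaaacgTGAATCAacggtgaaaaa
The TGANTCA matches shown begin 186, 45 and 185 bases before the respective starts. The SERPINB8 window holds another, nearer one at 28 bases, the SERPINB7 window shown holds another, farther one, and the middle SERPINB7 window holds 2, the nearer at 39 bases. A TGANTCA match thus stands upstream of genes that rose at P15 (PLAUR, SERPINB2, SERPINB7), of SERPINB5, which fell, and of SERPINB8, which was called in no comparison. Read on the strand of the gene, the central base differs between matches, with TGAGTCA in PLAUR and TGAATCA in SERPINB2 and SERPINB5. SERPINB8 holds both of these forms, and SERPINB7 holds TGAGTCA and TGATTCA.

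PLAU, the gene of urokinase, is on chromosome 10 (73909177 to 73917496, plus strand, GRCh38) and had the highest activator level in every phase. Its values were 8.46, 8.45, 8.53 and 8.50 in the P0 libraries and 8.78, 8.76, 8.79 and 8.72 at P3. They were 8.37, 8.42, 8.43 and 8.40 at P7 and 9.63, 9.71, 9.54 and 9.69 at P15. PLAU therefore stayed within a narrow band through P7 and rose at the last step, with no overlap between P15 and any other phase. The log2 fold change was 1.24 ± 0.03 (SE) at P15 against P7 (limma, Benjamini-Hochberg adjusted p = 7.69e-21), while the differences of 0.28 at P3 and -0.36 at P7 passed the adjusted p but were under 2-fold. Exons of C10orf55, a gene on the opposite strand, overlap those of PLAU, and whether counting used strand was not stated.

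PLAT, the gene of tissue-type activator, went the other way in the first 2 steps. It lies on chromosome 8, and its values were 8.07, 8.21, 8.15 and 8.16 at P0 and 7.14, 7.29, 7.10 and 7.17 at P3. They were 5.38, 5.44, 5.32 and 5.33 at P7 and 7.11, 7.15, 7.03 and 7.10 at P15. PLAT was thus highest in every parental library, lowest in every P7 library, and at P15 its libraries overlapped those of P3, with 1 of them below the P3 range. The step to P7 was a fall of 1.81 log2 units (SE 0.04, limma, Benjamini-Hochberg adjusted p = 9.57e-21), rank 27 from the bottom among the 13249 tested genes, and the step to P15 a rise of 1.73 (SE 0.04, adjusted p = 5.32e-22). The first step of -0.97 (adjusted p = 5.15e-16) was just under 2-fold and was called without P3 replicate 2 (-1.01), and P15 against P0 was -1.05 (adjusted p = 1.38e-17). A pattern of no call, a lower call and a higher call over the 3 steps was shared by 19 of all tested genes.

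PLAUR, the gene of the urokinase receptor (chromosome 19, 43646095 to 43670547, minus strand), rose early and again late. Its P0 values of 5.90, 5.98, 5.82 and 5.98 became 7.90, 7.98, 7.86 and 7.92 at P3. They were 7.46, 7.36, 7.54 and 7.41 at P7 and 8.44, 8.61, 8.51 and 8.49 at P15. No phase overlapped another, and every library of the resistant phases exceeded every parental one. The rise at P3 was 2.00 ± 0.04 (SE, limma, Benjamini-Hochberg adjusted p = 1.97e-21), the step to P7 was -0.47, and the rise from P7 to P15 was 1.07 ± 0.04 (adjusted p = 2.49e-17). Against P0 the late phase was 2.59 higher, which took the mean from 59.6 to 364.5 CPM. A call upward at P3, none at P7 and a call upward at P15 was seen for 29 of all tested genes (0.219%), PLAUR among them.

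**Figure D2:**
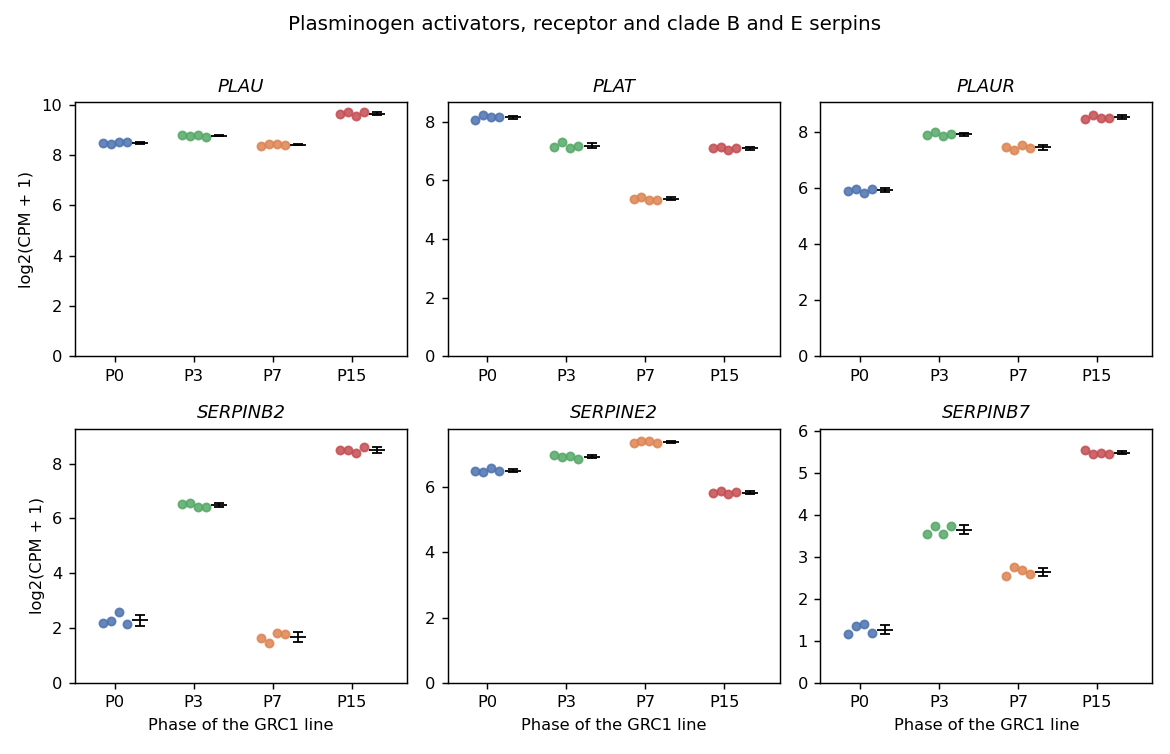
Log2(CPM + 1) of the 2 activators, the urokinase receptor and the serpins SERPINB2, SERPINE2 and SERPINB7, with 1 point per library, a black bar for the phase mean and whiskers of 1 SD (n = 4 libraries per phase). SERPINB2 is the gene with the widest swings, with phase means of 2.29, 6.49, 1.67 and 8.50, and PLAT is the only one whose parental libraries are its highest.

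SERPINB2, which encodes PAI-2, a largely intracellular inhibitor of urokinase that is inducible in many cell types (chromosome 18, 63871692 to 63903888, plus strand), swung most of all members. At P0 its values were 2.17, 2.24, 2.59 and 2.14, and at P3 they were 6.53, 6.58, 6.42 and 6.43. At P7 they were 1.62, 1.45, 1.82 and 1.79, and at P15 they were 8.49, 8.51, 8.38 and 8.62. The 4 phases did not overlap, and the gene was low at P0 and P7 and high at P3 and P15. The rise at P3 was 4.21 ± 0.09 (SE, limma, Benjamini-Hochberg adjusted p = 6.63e-22), rank 2 among 13249 genes, and the fall at P7 was -4.82 ± 0.09 (adjusted p = 1.74e-22), the largest fall of all. The rise at P15 was 6.83 ± 0.09 (adjusted p = 1.68e-27), rank 3. In CPM the phase means were 3.91, 89.0, 2.20 and 362, and the late mean was 92.4 times the parental one. SERPINB2 shares exon sequence with a readthrough transcript on the same strand.

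The up, down and up pattern with a call at each step was found in 42 of all tested genes (0.317%) and in 2 of the 14 tested genes described here, SERPINB2 and SERPINB7. SERPINB7, which encodes megsin, a clade B serpin of skin and kidney mesangium, had values of 1.15, 1.34, 1.39 and 1.19 at P0 and 3.54, 3.73, 3.55 and 3.74 at P3. They were 2.54, 2.75, 2.69 and 2.58 at P7 and 5.53, 5.45, 5.48 and 5.45 at P15. The phases did not overlap, and the fall at P7 was much shallower than that of SERPINB2, so that P7 stayed above P0. The steps were 2.37 ± 0.07 (SE), -1.0 ± 0.07 and 2.84 ± 0.07 (limma, Benjamini-Hochberg adjusted p of 1.73e-18, 5.15e-11 and 3.64e-21). The middle step lies on the 2-fold threshold and its call was lost when any of 4 libraries was left out, with -0.97 without P3 replicate 2, P3 replicate 4 or P7 replicate 1 and -0.98 without P7 replicate 4.

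SERPINE2, the gene of protease nexin 1, which inhibits thrombin and urokinase, had its highest values at P7 and its lowest at P15. Its values were 6.48, 6.46, 6.58 and 6.50 at P0 and 6.99, 6.92, 6.95 and 6.87 at P3. They were 7.35, 7.41, 7.40 and 7.35 at P7 and 5.81, 5.89, 5.78 and 5.85 at P15. The steps of 0.43 to P3 and 0.44 to P7 were under 2-fold, and the level then fell by 1.54 on the log2 scale (SE 0.04, limma, Benjamini-Hochberg adjusted p = 3.26e-22), below every parental library. SERPINA5, which encodes the protein C inhibitor and also inhibits urokinase, was present at a trace level, with phase means of 1.03 ± 0.21, 0.63 ± 0.07, 1.62 ± 0.05 and 0.53 ± 0.23 (SD, n = 4) from 10 to 99 estimated counts per library. It was called once, lower at P15 than at P7 by 1.10 on the log2 scale (SE 0.11, adjusted p = 3.09e-09). The difference from P3 to P7 of 0.99 was just under the threshold on the log2(CPM + 1) scale, with means of 0.552 and 2.08 CPM. This difference was called without P3 replicate 2 (1.02) or P7 replicate 2 (1.01). The annotation gives SERPINA5 exons in common with SERPINA4, which was at 0 in 15 of 16 libraries.

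The levels of these transcripts relative to one another shifted, as ratios within each library show. The log2 ratio of PLAU to PLAT in CPM was 0.34 ± 0.07 (SD, n = 4 throughout) at P0, 1.59 ± 0.10 at P3, 3.07 ± 0.06 at P7 and 2.55 ± 0.04 at P15. The log2 ratio of PLAU to PLAUR was 2.59 ± 0.10, 0.85 ± 0.07, 0.97 ± 0.08 and 1.13 ± 0.08. PLAU thus gained on PLAT up to P7, while its lead over the transcript of its receptor was cut at P3 and stayed small. PLAU and PLAT together summed to 640, 577, 378 and 935 CPM at the 4 phases. These ratios and sums follow from the values already given, were not tested on their own, and are of CPM and not of message per length.

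Levels of different genes can be set side by side per kilobase of merged exon. On this scale PLAU was at 121, 147, 115 and 271 CPM per kilobase at P0, P3, P7 and P15. SERPINB2 was at 1.43, 32.5, 0.802 and 132 in the same order, and SERPINH1 went from 29.9 at P0 to 5.21 at P15. SERPINB2 therefore passed SERPINH1 between P7 and P15 and stayed under PLAU in every phase. Merged exon length overstates the transcript of genes with many annotated forms, such as SERPINB6 with 13201 bases, and lowers their level.

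Among the remaining clade B serpins, SERPINB5 and SERPINB1 were lower at P15. SERPINB5 encodes maspin, an epithelial serpin that does not inhibit proteases and is known as a tumour suppressor in breast epithelium, and it lies on chromosome 18 (63476958 to 63505085, plus strand). Its values were 4.62, 4.64, 4.57 and 4.52 at P0 and 5.65, 5.54, 5.66 and 5.59 at P3. They were 5.72, 5.74, 5.86 and 5.72 at P7 and 2.47, 2.40, 2.32 and 1.99 at P15. It therefore was raised at P3, held at P7 and fell below every parental library at P15. The steps were 1.02 ± 0.07 (SE), 0.15 ± 0.07 and -3.46 ± 0.07 (limma, Benjamini-Hochberg adjusted p of 1.1e-11, 0.081 and 5.10e-23). Although the middle step missed the threshold, the P3 and P7 values did not overlap.

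SERPINB1, the leukocyte elastase inhibitor (chromosome 6, 2832332 to 2841959, minus strand), was nearly flat until P7. Its values were 5.43, 5.53, 5.50 and 5.37 at P0 and 5.30, 5.36, 5.27 and 5.37 at P3. They were 5.57, 5.60, 5.66 and 5.55 at P7 and 3.96, 3.85, 3.92 and 4.09 at P15. The P0 and P3 libraries touched, and those of P15 stood apart from all others. The last step was -1.64 ± 0.05 (SE, limma, Benjamini-Hochberg adjusted p = 1.27e-19), a fall from 47.4 to 14.5 CPM.

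SERPINB6 and SERPINB8, which encode cytosolic inhibitors of broad tissue distribution, were not called in any comparison. SERPINB6 had values of 6.85, 6.84, 6.84 and 6.79 at P0, 6.50, 6.51, 6.53 and 6.46 at P3, 6.82, 6.78, 6.83 and 6.76 at P7, and 7.13, 7.11, 7.10 and 7.22 at P15. SERPINB8 had values of 6.17, 6.21, 6.16 and 6.16 at P0, 6.76, 6.64, 6.71 and 6.65 at P3, 6.36, 6.41, 6.40 and 6.37 at P7, and 6.11, 6.17, 6.21 and 6.25 at P15. Their log2 fold changes passed the adjusted p in every comparison but that of P15 with P0 for SERPINB8, and they stayed within -0.33 and 0.34 for SERPINB6 and within -0.31 and 0.52 for SERPINB8. For SERPINB8 at P15 against P0 the difference was 0.01 with a 95% interval of -0.06 to 0.08 (limma, Benjamini-Hochberg adjusted p = 0.80), and the libraries of the 2 phases overlapped. Its exons overlap those of HMSD on the same strand.

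**Figure D3:**
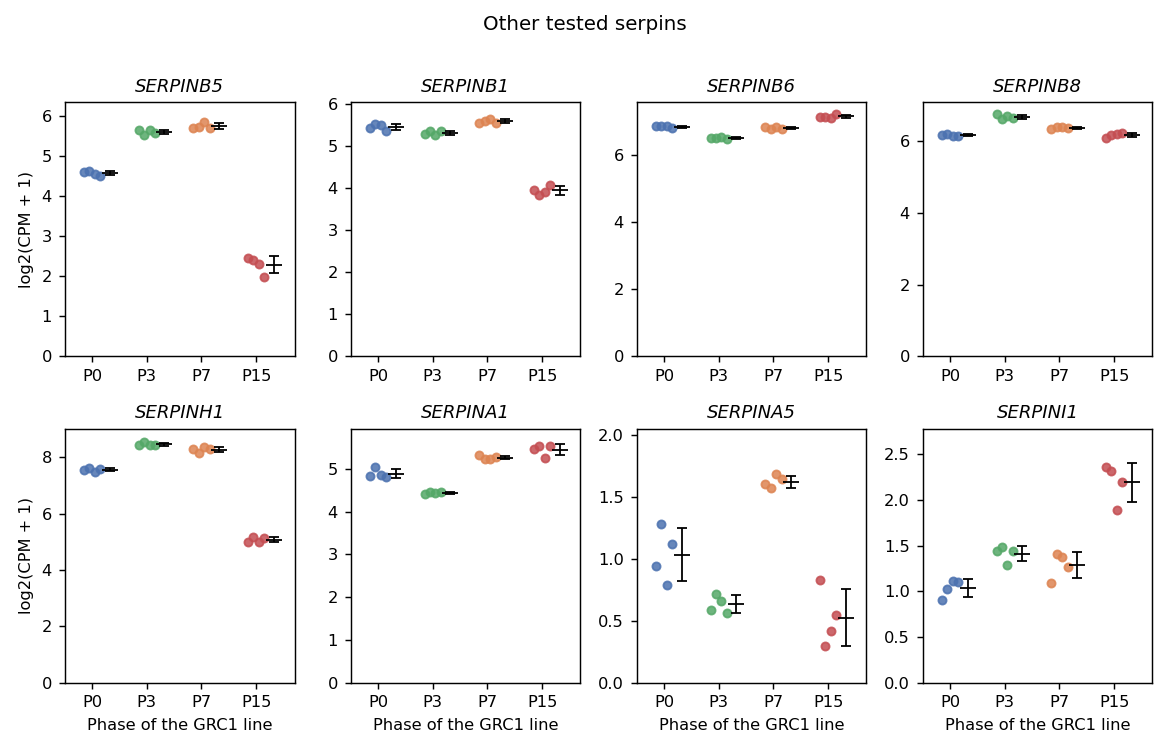
Log2(CPM + 1) of the other 8 tested serpins, with 1 point per library, a black bar for the phase mean and whiskers of 1 SD (n = 4 libraries per phase), each panel on its own scale from 0. SERPINB5, SERPINB1 and SERPINH1 drop at P15 to means of 2.29, 3.96 and 5.07, and SERPINA5 and SERPINI1 lie near the bottom of the measured range.

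SERPINH1 encodes HSP47, the collagen chaperone of the endoplasmic reticulum, which inhibits no protease (chromosome 11, 75562056 to 75572783, plus strand). Its values were 7.55, 7.61, 7.48 and 7.59 at P0 and 8.44, 8.54, 8.45 and 8.43 at P3. They were 8.28, 8.16, 8.37 and 8.29 at P7 and 5.00, 5.16, 5.00 and 5.13 at P15. The difference of 0.91 at P3 was under 2-fold, and the P15 libraries lay far under every other. The last step was -3.20 ± 0.04 (SE, limma, Benjamini-Hochberg adjusted p = 1.04e-26), a fall from 309 to 32.7 CPM, and the difference of P15 from P0 was -2.48 (adjusted p = 1.89e-24). Of 15 genes of collagen folding and hydroxylation, all tested, 1 was called higher and 1 lower at P15 against P0, beside 12.2% and 11.5% of all genes. P4HA3, a subunit of prolyl hydroxylase, was 2.78 higher, PLOD2, a lysyl hydroxylase, was 1.66 lower, and PLOD3 differed by 0.95 with no call. The median of the 15 partners was 0.50 at P15 against P0, beside 0.04 for all genes, where SERPINH1 was at -2.48.

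SERPINA1, the gene of alpha-1 antitrypsin, the plasma inhibitor of neutrophil elastase made mainly by liver, was present at a moderate level. Its values were 4.84, 5.05, 4.86 and 4.81 at P0, 4.41, 4.45, 4.44 and 4.45 at P3, 5.32, 5.23, 5.23 and 5.28 at P7, and 5.46, 5.54, 5.26 and 5.54 at P15. All 4 differences passed the adjusted p and none reached 2-fold, the largest being 0.83 ± 0.06 (SE) at P7 against P3 (limma, Benjamini-Hochberg adjusted p = 2.27e-11). The 6 hepatocyte marker genes in the table, none of them tested, summed to at most 0.220 CPM in any library. SERPINI1, the gene of neuroserpin, a brain inhibitor of tissue-type activator, had phase means of 1.03 ± 0.10, 1.41 ± 0.08, 1.29 ± 0.14 and 2.19 ± 0.21 (SD, n = 4). It was called once, 1.16 higher at P15 than at P0 (SE 0.10, adjusted p = 2.31e-10), at a mean of 3.6 CPM. The step from P7 to P15 of 0.90 was under the threshold on the log2(CPM + 1) scale, with means of 1.45 and 3.60 CPM. This step was called without P15 replicate 3, at 1.00, and with a pseudocount of 0.1, at 1.25.

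The 21 untested members were low throughout. SERPINA11 and SERPINA12 were at 0 in all 16 libraries, where 3 counts, the upper limit that a count of 0 allows, correspond to 0.0600 to 0.0888 CPM for counting error alone. These limits and the depth are in counts as deposited, and whether reads or pairs were counted was not given in the sources used here. If the mates of a pair were counted separately, the depth in fragments is lower and the limit in CPM higher. In 18 of the 21 the highest library was below 1 on the log2(CPM + 1) scale or absent. The plasma serpins SERPINC1 (antithrombin), SERPING1 (C1 inhibitor) and SERPINA3 reached at most 0.206, 0.102 and 0.275 CPM, and the 3 chromosome 18 genes with the highest untested levels, SERPINB3, SERPINB4 and SERPINB10, reached 0.385, 0.181 and 0.157 CPM. SERPINB3 and SERPINB4 are near-identical copies, so their division of reads is uncertain.

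The 3 untested members closest to the filter were SERPINA6, SERPIND1 and SERPINF1. SERPINA6, which encodes the cortisol carrier corticosteroid-binding globulin, had values of 1.11, 1.34, 1.63 and 1.39 at P0, 0.20 to 0.37 at P3, 0.40 to 0.49 at P7 and 0.79 to 1.07 at P15. With a lower filter of 0.1 CPM it was 1.06 lower at P3 than at P0 (SE 0.09, limma, Benjamini-Hochberg adjusted p = 4.73e-10). SERPIND1, heparin cofactor II, had values of 0.68 to 1.25 in all libraries of the first 3 phases and 0 to 0.12 at P15, a difference of -0.96 to P0 under that filter that was below 2-fold on this compressed scale. SERPINF1, the antiangiogenic factor PEDF, lay between 0.55 and 1.31 in every library and was not called.

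The chromosome 18 cluster held 9 of the members in order from SERPINB5 to SERPINB8, and 4 of them were tested. SERPINB5, SERPINB7, SERPINB2 and SERPINB8 lie 0, 276, 395 and 493 kb from the start of SERPINB5. Between P7 and P15 the first fell by 3.46, SERPINB7 and SERPINB2 rose by 2.84 and 6.83, and SERPINB8 differed by -0.20 with no call. Within the cluster or 500 kb of it, 5 other genes were tested. BCL2, KDSR and PHLPP1 were called in no comparison, and VPS4B was called once, 1.14 lower at P15 than at P7 on the log2 scale (-1.14, SE 0.04). HMSD lies inside the cluster and overlaps SERPINB8 on the same strand, with exon sequence in common. How reads in the shared exons were assigned was not given in the sources used here. HMSD had phase means of 0.90 ± 0.08, 0.52 ± 0.22, 0.14 ± 0.13 and 4.84 ± 0.06 (SD, n = 4). It rose by 4.70 at P15 against P7 (SE 0.10, limma, Benjamini-Hochberg adjusted p = 8.52e-23). In chromosomal order VPS4B and SERPINB5 were thus called lower at P15 against P7, and the next 3 tested genes (SERPINB7, SERPINB2 and HMSD) higher. SERPINB8 had no call. Of all tested genes 13.4% were called higher in this comparison and 12.1% lower, and the order of the calls was not tested.

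**Figure D4:**
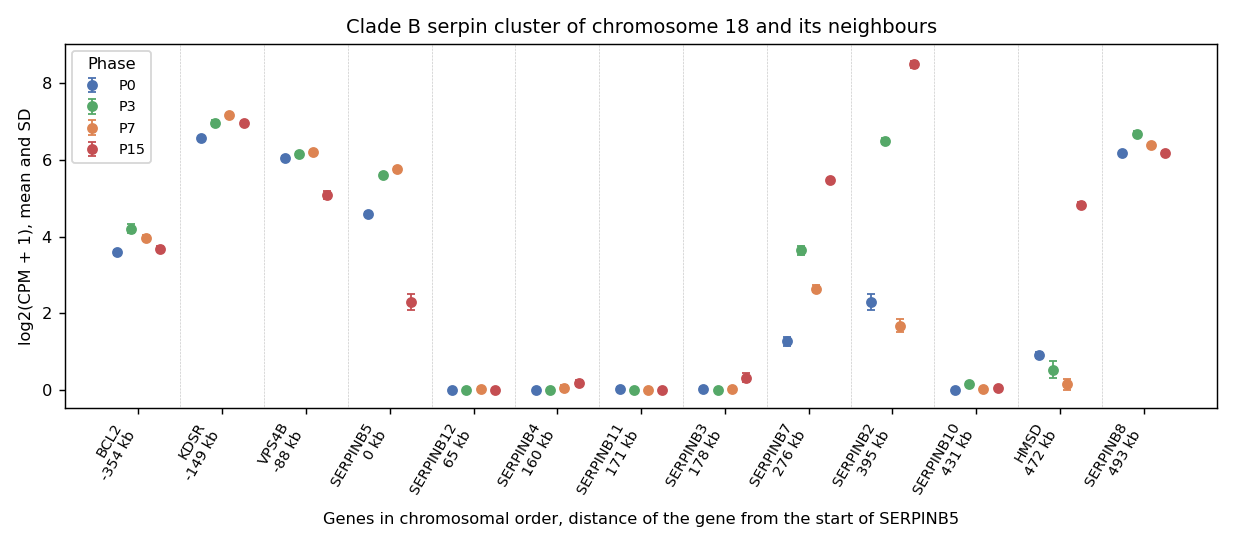
Mean log2(CPM + 1) with whiskers of 1 SD (n = 4 libraries per phase) for the serpins of the chromosome 18 cluster and 4 of the tested neighbours, in chromosomal order, with the distance in kb from the start of SERPINB5. SERPINB7, SERPINB2 and HMSD are highest at P15, SERPINB5 is lowest there, and the untested genes between them lie near 0 at every phase.

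In the chromosome 6 cluster, SERPINB1 and SERPINB6 were tested and SERPINB9, an inhibitor of granzyme B, reached at most 0.102 CPM. Of 8 other tested genes within 500 kb only TUBB2B, a beta tubulin, was called, 4.63 higher at P15 than at P7, where 13.4% of all tested genes were called higher. In the chromosome 14 cluster of clade A, SERPINA1 and SERPINA5 were tested out of 10 members. Of its 8 tested neighbours, 3 were called lower at P3 than at P0 (ASB2, OTUB2 and IFI27), beside 2.51% of all tested genes. IFI27, an interferon-inducible gene, was 6.87 lower at P15 than at P0 on the log2 scale (-6.87).

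The partners of the plasminogen system were described from lists of genes. Of 14 genes for plasminogen receptors, clearance receptors and plasma partners, 9 were tested and 0 were called at P3 against P0 or at P7 against P3 by limma. The shares of all tested genes called there were 4.47% and 1.84%. At an unadjusted p below 0.05, 8 and 7 of the 9 passed in these comparisons, with log2 fold changes of at most 0.80 and 0.78 in size. At P15 against P0, 1 was called higher and 3 lower, beside 12.2% and 11.5% of all genes. The 3 lower were SORL1, a sorting receptor (-3.23), ANXA2, annexin A2, which binds plasminogen and tissue-type activator (-1.49), and its partner S100A10 (-1.30). The gene called higher was LRP1, the receptor that clears complexes of activators with their inhibitors.

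Among 10 tested zymogens and matrix substrates of plasmin, 4 were called higher and 2 lower at P15 against P0, beside 12.2% and 11.5% of all genes. MMP1 and MMP3, a collagenase and stromelysin 1, had phase means of 2.88, 4.96, 3.03 and 7.46 and of 0.73, 2.82, 1.00 and 7.41, the same up, down and up pattern of calls as SERPINB2 and SERPINB7. MMP2 and MMP10 were the other 2 called higher. FN1, fibronectin, was 14.45 ± 0.11 at P0 and 6.90 ± 0.11 at P15 (SD, n = 4), a log2 fold change of -7.54 (SE 0.06, limma, Benjamini-Hochberg adjusted p = 3.86e-32), and LAMA3 was the other gene called lower.

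Kallikreins and membrane-anchored serine proteases were mostly low, while most of the proteases bound by clade B serpins were tested. Of the kallikreins 14 were in the table and none was tested. Of 16 membrane-anchored serine proteases 2 were tested: TMPRSS2 was 3.56 lower at P15 than at P0 (-3.56), and DPP4 differed by -0.60 with no call. Of 9 tested intracellular and granule proteases bound by clade B serpins, 2 were called higher and 3 lower at P15 against P0, beside 12.2% and 11.5% of all genes. The 3 were CTSS (-5.24), CASP1 (-4.38) and CTSB (-1.64), and the 2 were CTSL and CTSV.

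Of 13 tested protease inhibitors outside the serpin family, 2 were called higher and 4 lower at P15 against P0, beside 12.2% and 11.5% of all genes. TFPI2, a Kunitz-type inhibitor of plasmin and trypsin, had phase means of 6.46, 8.52, 7.17 and 11.85, with a call upward, downward and upward, and was 5.39 above P0 at P15. TIMP3, a metalloproteinase inhibitor, was -4.75 and SPINT1, an inhibitor of membrane serine proteases, -3.26 in the same comparison. Of 10 tested coagulation factors and receptors, 3 were called higher and 2 lower at P15 against P0, beside the same 12.2% and 11.5% of all genes. F3, tissue factor, had means of 7.46, 9.41, 7.61 and 4.05, with calls upward, downward and again downward. F2RL1, a protease-activated receptor, was -3.01, and F12, the contact factor, was 1.66.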

How the data were processed

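RNA-seq libraries of T24 and GRC1 cells at 4 phases, 4 per phase, were analysed. According to the study's methods, reads were aligned with STAR 2.6.1a to GRCh38 and counted per gene with featureCounts. Strand setting, counting of reads or pairs and handling of multi-mapped reads were not given in the sources used here. The authors deposited 39007 rows of log2(CPM + 1) with 2 decimals per value, of which 27 have date-like names. Values on the linear scale sum to about 1000000 per library, so the quantile normalization and centring that the methods name are not in them. The spacing of low values gave the depth, and genes at 2 counts were 2.92 to 3.25 times as many as genes at 1 count.

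Libraries were grouped by the phase in the sample labels. Genes with a mean above 1 CPM were fitted with limma 3.58.1 (R 4.3.3), 1 coefficient per phase, a variance trend and Benjamini-Hochberg adjustment over all 13249 tested genes, and called at an adjusted p below 0.05 with a log2 fold change of 1 or more in size. The limma design replaces a test on counts, since no counts were used. The procedure was tested on simulated data. Tables were made in Python 3.11.15 (numpy 2.4.6, pandas 2.3.3) and figures with matplotlib 3.10.9. Coordinates and merged exon lengths are from GENCODE 44, and upstream sequences from RefSeq (GRCh38.p14).

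The members and the gene lists were chosen with earlier results of these data known. A gene that matched the symbol rule is not reported here and is left out of the counts over members. Every other tested member is described, per library where a phase mean reaches 10 CPM or a 4-fold call was made, and from each list the 3 tested genes with the largest difference of P15 from P0, with further called genes named after their values were seen. Alternatives were other filters (0.1 CPM, none, 1 CPM in all 16 libraries), pseudocounts of 0.1 and 5, quantile and median normalization, a constant variance prior, fits on the compared phases only, calls by adjusted p alone, a test against a 2-fold change (treat), the replicate number as a block and leaving out each library.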

Additional observations from a re-analysis of the deposited data

Results flagged for a closer look

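In 56 groups of 4 libraries (14 tested genes at 4 phases), the gap between the most extreme library and its nearest neighbour, divided by the range of the group, passed Dixon's critical value in 2 cases, where chance passes about 1 in 20 groups, or 2.8 of 56. For SERPINB5 at P7 the ratio was 0.86, with replicate 3 at 5.86 and the others at 5.72 to 5.74. For SERPINB6 at P0 it was 0.83, with replicate 4 at 6.79 and the others at 6.84 to 6.85. Both gaps are small beside the differences between phases, and values are rounded to 2 decimals.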

How the results depend on the processing

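Most results were the same under the other settings, but many of these settings could not move a fold change. Over single genes, 1561 of the comparisons with an alternative kept direction and side of the threshold, 36 passed it newly, 17 fell short and 2 changed sign. Left-out libraries of other phases, filters, replicate blocks, a constant variance prior and fits on the compared phases leave every fold change unmoved. The 1561 therefore include many that could change only through the adjusted p. Both sign changes were SERPINB8 at P15 against P0, with -0.0125 after shifting libraries to 1 median and a range of -0.0117 (without P15 replicate 4) to 0.0350 (without P15 replicate 1) when 1 library was left out. Without a fold threshold 14 members passed at P3 against P0 and 12 at P7 against P3. Calls over all genes at P3 against P0, 592 as reported, were 381 with 1 CPM in all libraries, 939 and 290 with pseudocounts of 0.1 and 5, 9100 with no fold threshold and 357 by treat. Those at P7 against P3, 244 as reported, were 139, 445, 106, 7713 and 114 in that order. Calls at P15 were 2166 against P7 and 1976 against P0 with a pseudocount of 5, and 11452 and 11423 with no fold threshold, against 3377 and 3129.

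Most calls that moved, though not all, were near 2-fold on the log2(CPM + 1) scale. SERPINB7 at P7 against P3 lost its call with a pseudocount of 5 (-0.69), the median shift, treat and 4 left-out libraries. By treat, SERPINB5 at P3, PLAUR and SERPINA5 at P15 against P7, and PLAT and SERPINI1 at P15 against P0 lost theirs. A pseudocount of 5 ended the calls of SERPINB5 at P3 (0.91), SERPINA5 at P15 against P7 (-0.38) and SERPINI1 at P15 against P0 (0.50). Quantile normalization ended those of PLAT (-0.99) and SERPINI1 (0.99) at P15 against P0. Beside calls by adjusted p alone, calls were gained by PLAT at P3 without P3 replicate 2 (-1.01) and by quantile normalization, and by SERPINA5 at P7 against P3 without P3 replicate 2 (1.02), without P7 replicate 2 (1.01), by quantile normalization (1.00) and with a pseudocount of 0.1 (1.75). SERPINI1 at P15 against P7 gained one without P15 replicate 3 (1.00) and with a pseudocount of 0.1 (1.25). SERPINA5 at P15 against P0, -0.51 as reported, gained one with a pseudocount of 0.1 (-1.13). Its means were 1.06 CPM at P0 and 0.453 CPM at P15, a ratio of 2.35 that the log2(CPM + 1) scale compresses. Leaving out 1 library gave 4 to 5 member calls at P3, 2 to 4 at P7, 10 to 11 at P15 against P7 and 9 at P15 against P0.

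Numbers from the sample descriptions and from the titles were tried as a replicate block. Same-numbered libraries correlated by -0.15 to 0.22, but differently numbered ones were not compared, so whether the numbers mark a pairing was not decided. With the replicate block the calls over all genes were 592, 244, 3377 and 3129, the same counts as without it. Every phase holds every number, so a block cannot move a fold change, and the equal counts do not decide it either. Depth limits the 21 untested genes, and the scale of log2(CPM + 1) understates the changes of low ones.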
